A study of Mus musculus with 6 samples.

Results

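The 44 collagen chain genes listed for mouse liver are described here, out of 55491 genes in the table. They were taken by gene symbol alone, as every symbol made of Col, a type number, the letter a and a chain number. No measured value set which chain genes were included, but the choice was made with earlier results of these data known. Fibrillar chains (types 1, 2, 3, 5 and 11) made up 9 of them, basement membrane chains (types 4, 15 and 18) 8, beaded filament chains (type 6) 6, and the other types 21. A mean of at least 0.5 FPKM (mapped fragments scaled by transcript length and library depth) over all 6 livers was reached by 21 genes: 7 fibrillar, 5 basement membrane, 3 beaded filament and 6 other chains. Closest to that limit were Col8a1 inside it, with a mean of 0.513 FPKM, and Col9a3 outside it, with 0.440 FPKM.

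Collagens are triple helices of alpha chains encoded by separate genes, so a type made of different chains needs more than one gene to be active. Fibrillar collagens form the tensile fibres of scar tissue, type IV collagen forms the sheet-like network of basement membranes, and type VI collagen forms beaded microfilaments around cells. In injured liver, hepatic stellate cells and portal fibroblasts that have become myofibroblasts are the best known source of fibrillar collagen, and hepatocytes are known to make the long forms of type XVIII collagen.

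The livers came from 3 Chrna2fl/fl;AlbCre mice, called mutant, and 3 Chrna2fl/fl mice, called control. Both groups carried the floxed Chrna2 allele, which encodes a nicotinic acetylcholine receptor subunit, and only the mutant mice carried Cre under the albumin promoter, which acts in hepatocytes and is not directed at stellate cells or fibroblasts. Mice of both genotypes were young adults when put on a high-fat diet (HFD), to which injections of the liver toxin carbon tetrachloride (CCl4) were added in the later weeks. Littermates with the floxed allele served as controls under the study's methods. No strain is named for these 6 mice, and neither unchallenged livers nor mice with Cre alone were among them, so a difference between the groups is one between challenged livers, and effects of Cre itself cannot be told apart from those of the deletion. The livers are called a, b and c within each genotype, as labelled, and no source used here says that the letters pair them.

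The transcripts that the labels concern were read first. Chrna2 was at 0.36, 0.03 and 0.32 FPKM in the mutant livers, in the order a, b, c used throughout, against 1.24, 1.20 and 2.64 FPKM in the control livers, and Cre was at 2.76 to 4.34 FPKM in mutant livers and listed at 0 in control livers. The hepatocyte transcript Alb was at 24361 to 33815 FPKM in mutant livers and 25514 to 46354 FPKM in control livers. Depth, estimated from the smallest increments of FPKM, was 9.16 to 9.38 M fragments in mutant libraries and 17.2 to 18.1 M in control libraries. Because these ranges did not overlap, whatever came with sequencing depth cannot be told apart from the genotype.

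Promoter windows of RefSeq on GRCm38.p6, from 250 bases before to 50 bases after a start, matched 35 of the 44 genes. The first pair is shown because Col4a1 and Col4a2, the chains of the common type IV network, are read in opposite directions from one shared stretch of chromosome 8. Their windows, chr8:11312777-11313076 on the minus strand for Col4a1 and chr8:11312555-11312854 on the plus strand for Col4a2, have 78 bases in common, printed in capitals, and the annotated genes overlap at their starts.
Col4a1: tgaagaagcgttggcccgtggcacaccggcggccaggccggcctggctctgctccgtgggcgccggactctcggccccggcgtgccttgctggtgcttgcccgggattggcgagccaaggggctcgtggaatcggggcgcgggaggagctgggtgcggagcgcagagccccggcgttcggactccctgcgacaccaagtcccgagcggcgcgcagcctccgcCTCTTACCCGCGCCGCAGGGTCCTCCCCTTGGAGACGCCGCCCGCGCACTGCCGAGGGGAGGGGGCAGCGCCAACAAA
Col4a2: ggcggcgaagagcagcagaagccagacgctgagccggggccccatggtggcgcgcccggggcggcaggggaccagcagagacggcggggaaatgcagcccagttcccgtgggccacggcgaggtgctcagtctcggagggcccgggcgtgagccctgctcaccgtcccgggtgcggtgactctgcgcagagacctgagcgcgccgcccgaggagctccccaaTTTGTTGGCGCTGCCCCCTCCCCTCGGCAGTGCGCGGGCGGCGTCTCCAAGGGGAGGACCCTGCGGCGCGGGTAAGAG

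The next set is shown for genes that were placed differently between the genotypes: Col1a2 with the many chains that were higher on average in mutant livers, Col16a1 with the largest positive difference, and Col18a1 as the most abundant chain, with a negative one. The windows are chr6:4505368-4505667 (plus strand) for Col1a2, chr4:130047590-130047889 (plus strand) for Col16a1, and, for the separate starts of Col18a1, chr10:77166481-77166780 and chr10:77113656-77113955 (minus strand). Capitals mark CCAAT (the CCAAT box), GGGCGG (the GC box) and TATAAA (the TATA box), searched on both strands.
Col1a2: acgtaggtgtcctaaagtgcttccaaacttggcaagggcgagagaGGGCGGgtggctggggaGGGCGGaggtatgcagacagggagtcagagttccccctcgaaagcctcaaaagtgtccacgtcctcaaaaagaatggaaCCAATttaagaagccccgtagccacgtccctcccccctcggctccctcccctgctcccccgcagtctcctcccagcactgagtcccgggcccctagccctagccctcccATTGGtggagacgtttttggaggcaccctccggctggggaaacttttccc
Col16a1: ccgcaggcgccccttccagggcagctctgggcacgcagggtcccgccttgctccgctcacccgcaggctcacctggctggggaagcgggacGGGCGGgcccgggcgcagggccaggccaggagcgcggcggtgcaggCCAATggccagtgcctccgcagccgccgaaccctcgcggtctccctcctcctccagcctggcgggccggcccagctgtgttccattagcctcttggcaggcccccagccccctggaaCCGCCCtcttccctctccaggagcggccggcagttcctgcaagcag
Col18a1, upstream start: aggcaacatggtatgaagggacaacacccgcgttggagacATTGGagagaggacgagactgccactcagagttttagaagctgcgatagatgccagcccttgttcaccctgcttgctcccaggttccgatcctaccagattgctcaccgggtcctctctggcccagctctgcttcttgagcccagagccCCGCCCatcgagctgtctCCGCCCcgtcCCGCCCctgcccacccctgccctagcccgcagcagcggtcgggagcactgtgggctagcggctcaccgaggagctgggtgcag
Col18a1, downstream start: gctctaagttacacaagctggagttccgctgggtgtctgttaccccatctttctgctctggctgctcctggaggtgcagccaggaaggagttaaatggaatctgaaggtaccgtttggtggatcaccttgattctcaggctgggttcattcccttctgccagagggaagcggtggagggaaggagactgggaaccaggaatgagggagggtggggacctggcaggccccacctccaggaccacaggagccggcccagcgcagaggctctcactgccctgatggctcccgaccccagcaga

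GGGCGG stood in 60.5% of the 38 collagen windows, against 35.7% of all 32851 windows of that length in the table. CCAAT stood in 34.2% against 37.4%, and TATAAA in 13.2% against 13.6%. The downstream Col18a1 window held none of the 3 motifs and the upstream one held CCAAT and GGGCGG. A match is a run of letters and was not tested as a binding site. The table gives 1 value per gene, so transcripts from the separate Col18a1 starts could not be told apart.

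Most collagen chains had higher mean levels in mutant livers, but the livers of each genotype differed so much that the groups overlapped for nearly all of them. The log2 fold change, mutant over control on the log2(FPKM + 0.1) scale, was above 0 for 18 of the 21 tested chains (85.7%), against 70.3% of the 13943 genes tested. The median over the 21 chains was 0.87, beside 0.19 over all genes tested. At an unadjusted p under 0.05 in limma, Col16a1 and Col8a1, 2 of the 21 chains, were higher, where 13.2% of all genes were. Col5a3 and Col18a1, also 2 of the 21, were lower, where 3.02% of all genes were. Col8a1 passed the limit of 0.5 FPKM only through its mutant livers, with a mutant mean of 0.783 and a control mean of 0.243 FPKM. None of the 21 chains, and none of all genes tested, passed an adjusted p under 0.05 (Benjamini-Hochberg over 13943 genes). The same 4 chains were the ones whose groups did not overlap: 2 with all 3 mutant livers above all 3 control livers (18.7% of all genes) and 2 with all 3 below (4.34% of all genes).

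These counts moved with single livers. Without control liver b, 11 chains were higher at an unadjusted p under 0.05 and 10 had every mutant liver above every control liver. Limma calls over all genes in either direction at that p also rose, from 2263 to 3407 of 13943, and higher calls were not counted apart there. Without mutant liver c, 14 chains had every mutant liver above every control liver. Full separation is easier to reach with a liver left out, and its share over all genes was not counted in these settings. The counts of 11, 10 and 14 chains therefore have no matching share over all genes and cannot be called particular to collagen chains. Without control liver c, the median log2 fold change of the 21 chains was 0.38, and without control liver b it was 1.34. The number of lower chains at that p was 1 when any liver other than control b was left out, and that of higher chains was 1 without mutant liver b or control liver c. Class medians were 0.99 for the 7 fibrillar, 0.73 for the 5 basement membrane, 0.72 for the 3 beaded filament and 0.83 for the 6 other chains. Without control liver c they were 0.42, 0.38, 0.014 and 0.42 in the same order, and without control liver b 1.65, 1.03, 1.29 and 1.15. Whether a bulk level reflects the number of cells of a type or the RNA per cell cannot be told apart in these livers.

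**Figure D1:**
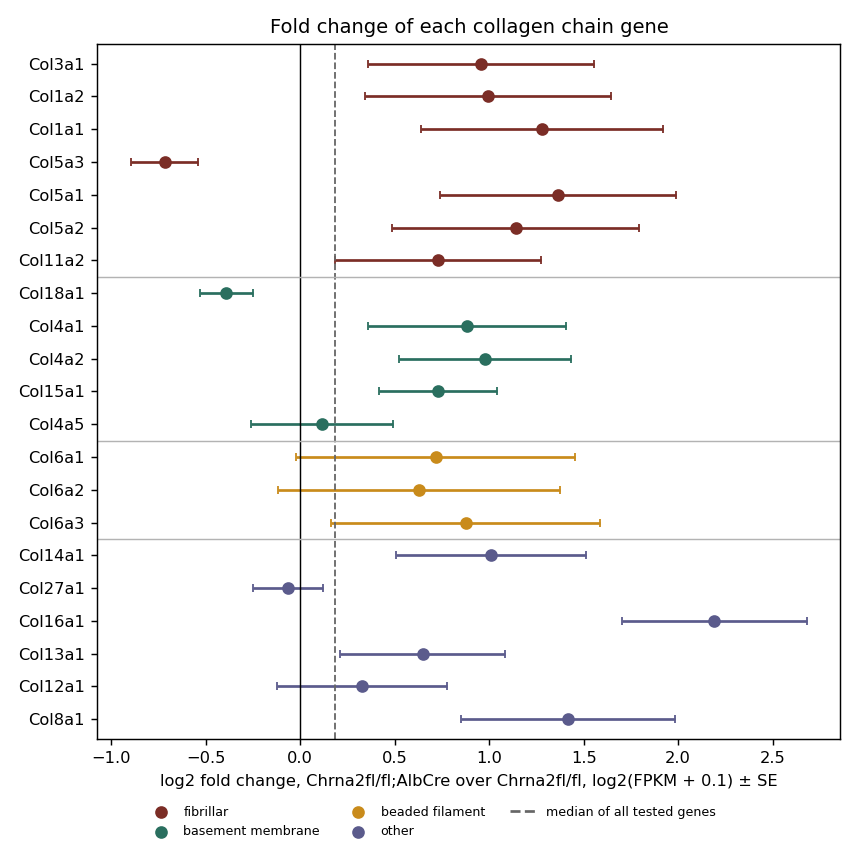
Log2 fold change (Chrna2fl/fl;AlbCre over Chrna2fl/fl, log2(FPKM + 0.1) scale) of the 21 collagen chain genes that averaged 0.5 FPKM or more, with the limma standard error as bars, grouped by class from top to bottom. Col16a1 lies farthest to the right at 2.19, Col5a3, Col18a1 and, at -0.064, Col27a1 lie left of 0, and the dashed line marks the median of all tested genes at 0.19.

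Among the fibrillar chains, those of types I and III, Col5a1 and Col5a2 were highest in mutant liver b and lowest in control liver c, and Col5a3 had its lowest value in mutant liver b and its highest in control liver c. Col3a1, the single chain of type III collagen in reticular fibres, was at 95.0, 98.4 and 46.5 FPKM in mutant livers, against 38.4, 92.5 and 16.7 FPKM in control livers. Mutant livers a and b and control liver b were close together and high, control liver c was lowest, and the groups overlapped. Its log2 fold change was 0.96 (SE 0.60, adjusted p = 0.434).

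Col1a2, a chain of type I collagen, the main fibre of scar tissue, had 42.1, 47.9 and 16.4 FPKM in mutant livers, against 14.3, 39.95 and 7.22 FPKM in control livers. Its partner Col1a1 had 26.1, 31.1 and 12.6 FPKM in mutant livers, against 8.83, 22.0 and 3.56 FPKM in control livers. Both were highest in mutant liver b and lowest in control liver c, and control liver b lay above mutant liver c in each. The log2 fold changes were 0.99 (SE 0.65) for Col1a2 and 1.28 (SE 0.64, adjusted p = 0.354) for Col1a1. Within the control group alone, the highest liver had 6.18 times the Col1a1 of the lowest, while the mutant mean was 203% of the control mean.

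Type V collagen co-assembles with type I and limits the width of its fibrils. Col5a1 was at 11.6, 14.1 and 6.37 FPKM in mutant livers, against 4.24, 9.22 and 1.46 FPKM in control livers, and Col5a2 was at 11.02, 13.0 and 4.47 FPKM, against 4.92, 8.06 and 1.42 FPKM. Their log2 fold changes were 1.36 (SE 0.62) and 1.14 (SE 0.65). The groups overlapped, as control liver b exceeded mutant liver c for both and control liver a also did for Col5a2. Col5a3, the less widespread chain of the same type, was at 7.73, 6.39 and 8.97 FPKM in mutant livers, against 12.4, 11.3 and 14.3 FPKM in control livers. All 3 mutant livers were below all 3 control livers, with 60.7% of the control mean and a log2 fold change of -0.72 (SE 0.18, unadjusted p = 0.00447, adjusted p = 0.255). In each genotype its order was the reverse of that of Col5a1, with liver b lowest and liver c highest. Col11a2, a chain of the cartilage fibril collagen XI, stayed between 0.30 and 1.78 FPKM, with a log2 fold change of 0.73 (SE 0.55). Of the remaining fibrillar genes, Col2a1 was listed at 0 in all livers and Col11a1 in all but control liver b, at 0.03 FPKM.

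**Figure D2:**
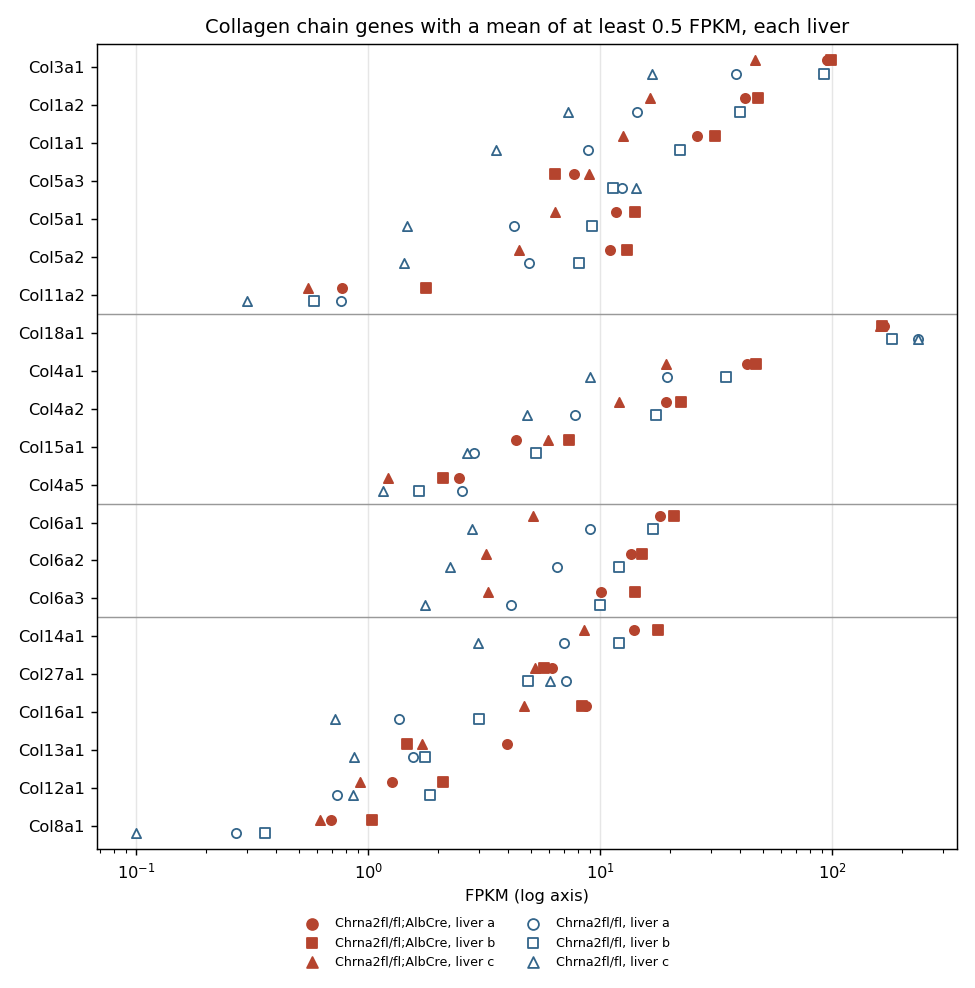
FPKM (log axis) of the 21 collagen chain genes in each liver, filled red symbols for Chrna2fl/fl;AlbCre and open blue symbols for Chrna2fl/fl, with circles, squares and triangles for livers a, b and c. In most rows the open square (control liver b) lies to the right of the filled triangle (mutant liver c), as in Col1a1 with 22.0 FPKM against 12.6 FPKM, while the red symbols of Col16a1 all lie right of the blue ones and those of Col5a3 and Col18a1 all lie left.

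In the basement membrane class the most abundant collagen transcript of all, Col18a1, was lower in mutant livers, and the type IV chains Col4a1 and Col4a2 were higher on average. Col18a1, whose protein is also the source of the fragment endostatin, was at 167, 164 and 161 FPKM in mutant livers, against 233, 181 and 235 FPKM in control livers. The mutant livers lay within 1.04-fold of each other and all below the controls, of which liver b was the lowest. This gave 75.7% of the control mean and a log2 fold change of -0.39 (SE 0.14, unadjusted p = 0.0259, adjusted p = 0.283).

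Col4a1 was at 42.7, 46.7 and 19.3 FPKM in mutant livers, against 19.4, 34.8 and 9.03 FPKM in control livers. Col4a2, read from the other strand of the stretch printed in capitals above, was at 19.1, 22.3 and 12.0 FPKM, against 7.79, 17.3 and 4.85 FPKM. They ranked the livers alike apart from mutant liver c and control liver a, which were at nearly the same Col4a1 level. The log2 fold changes were 0.88 (SE 0.52) and 0.98 (SE 0.46). Col15a1, a relative of type XVIII found just beneath basement membranes, was at 4.35 to 7.32 FPKM in mutant livers and 2.67 to 5.27 FPKM in control livers, with a log2 fold change of 0.73 (SE 0.31, unadjusted p = 0.0511). Col4a5, a chain of the specialised type IV network best known from kidney, was at 1.22 to 2.47 FPKM in mutant livers and 1.16 to 2.53 FPKM in control livers, with a log2 fold change of 0.12 (SE 0.38) whose sign depended on the scaling. Col4a3, Col4a4 and Col4a6 had means of 0.207 to 0.370 FPKM, and the 1.16 FPKM of Col4a3 in control liver a was the only value above 0.5 among them. The mutant mean of Col4a3 was below the control mean, at 0.197 against 0.543 FPKM, and those of Col4a4 and Col4a6 were above it.

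The beaded filament chains of type VI, which assemble from 3 different alpha chains, had the widest spread among mutant livers of the 21 tested chains, where the highest was 4.02 to 4.72 times the lowest. Col6a1 was at 18.1, 20.7 and 5.14 FPKM in mutant livers, against 9.0, 16.9 and 2.79 FPKM in control livers. Col6a2 was at 13.6, 15.2 and 3.22 FPKM, against 6.51, 12.0 and 2.25 FPKM, and Col6a3 at 10.0, 14.1 and 3.27 FPKM, against 4.1, 9.97 and 1.76 FPKM. Here control liver a also lay above mutant liver c in all 3 genes, so the groups overlapped more than for type I. The log2 fold changes were 0.72, 0.63 and 0.87, with standard errors of 0.74, 0.75 and 0.71. Col6a4, Col6a5 and Col6a6, neighbouring genes on chromosome 9, had means of 0.0250 to 0.353 FPKM.

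Col16a1 stood apart among the other chains. It encodes a fibril-associated collagen with interrupted triple helices, a kind that decorates fibrils instead of forming them. It was at 8.66, 8.30 and 4.70 FPKM in mutant livers, against 1.36, 2.99 and 0.72 FPKM in control livers, so every mutant liver was above every control liver. The mutant mean was 427% of the control mean and the log2 fold change 2.19 (SE 0.49, unadjusted p = 0.00257, adjusted p = 0.245). It was the largest among the 21 chains and came to 1.73 to 2.69 with 1 liver left out. The adjusted p in limma was 0.0546 without control liver b, the highest control liver, and 0.376 to 0.516 when any other liver was left out. Without control liver b, 39 of all 13943 genes passed an adjusted p under 0.05, against 0 as reported. Other fibril-associated chains had smaller differences: Col14a1 was at 14.0, 17.7 and 8.46 FPKM in mutant livers, against 6.94, 12.0 and 2.97 FPKM in control livers (log2 fold change 1.01, SE 0.50), and Col12a1 was at 0.92 to 2.10 FPKM in mutant livers and 0.73 to 1.85 FPKM in control livers (0.33, SE 0.45).

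Col8a1, a short network-forming chain of vessel walls, was at 0.69, 1.04 and 0.62 FPKM in mutant livers, against 0.27, 0.36 and 0.10 FPKM in control livers. All mutant livers were higher, with a log2 fold change of 1.42 (SE 0.56, unadjusted p = 0.0392, adjusted p = 0.292). Its control mean of 0.243 FPKM was below the limit of 0.5 FPKM, so it was tested only because of its mutant livers. At these levels a value stands for about 9 fragments in control liver c and about 46 in mutant liver b. Col27a1, which is usually counted as a fibrillar collagen of cartilage, was at 6.17, 5.72 and 5.23 FPKM in mutant livers, against 7.13, 4.88 and 6.07 FPKM in control livers (log2 fold change -0.064, SE 0.19). Col13a1, a collagen that spans the cell membrane, was at 1.47 to 3.95 FPKM in mutant livers and 0.87 to 1.76 FPKM in control livers (0.65, SE 0.44). The other 15 genes of this class had means below 0.5 FPKM.

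Of the 23 chains below a mean of 0.5 FPKM, Col2a1, Col9a1, Col19a1 and Col26a1 were listed at 0 in all 6 livers. The other 19 had means of 0.00333 to 0.440 FPKM, and their mutant mean was above the control mean in 11 and below it in 8. Col9a3 was the highest, with 1.21 FPKM in mutant liver b and 0.15 to 0.58 FPKM elsewhere. Most of these values stand for few fragments, although the 1.16 FPKM of Col4a3 in control liver a stands for about 174, and the genes were left out of the tests reported here. When the filter was dropped, Col25a1, at 0.03, 0 and 0.02 FPKM in mutant livers against 0.13, 0.08 and 0.05 FPKM in control livers, was a further chain at an unadjusted p under 0.05 (log2 fold change -0.66, SE 0.27, adjusted p = 0.443), with at most about 15 fragments per liver. Col25a1 and Col28a1 were then further chains with every mutant liver below every control liver.

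The order of the livers was shared by chains of different classes. Mutant liver b was highest for 15 of the 21 chains (20.3% of all genes tested) and control liver c was lowest for 17 (37.1% of all genes). Control liver b lay above mutant liver c for 17 (41.8% of all genes). Mutant livers a and b and control liver b were the 3 highest for 12 chains, 5 of them fibrillar, 2 basement membrane, 3 beaded filament and 2 other, against 11.2% of all genes. Among the 14 chains that averaged 5 FPKM or more, the highest and the lowest control liver differed by 1.26-fold to 6.32-fold, and by more than 3-fold in 11 of them. The 3 that stayed under this were Col18a1, Col5a3 and Col27a1, the chains with a log2 fold change below 0. These shares describe chains measured in the same 6 libraries and are not independent of each other. The livers named in these patterns were picked with the chain levels known, so a share above that of all genes is not a test.

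**Figure D3:**
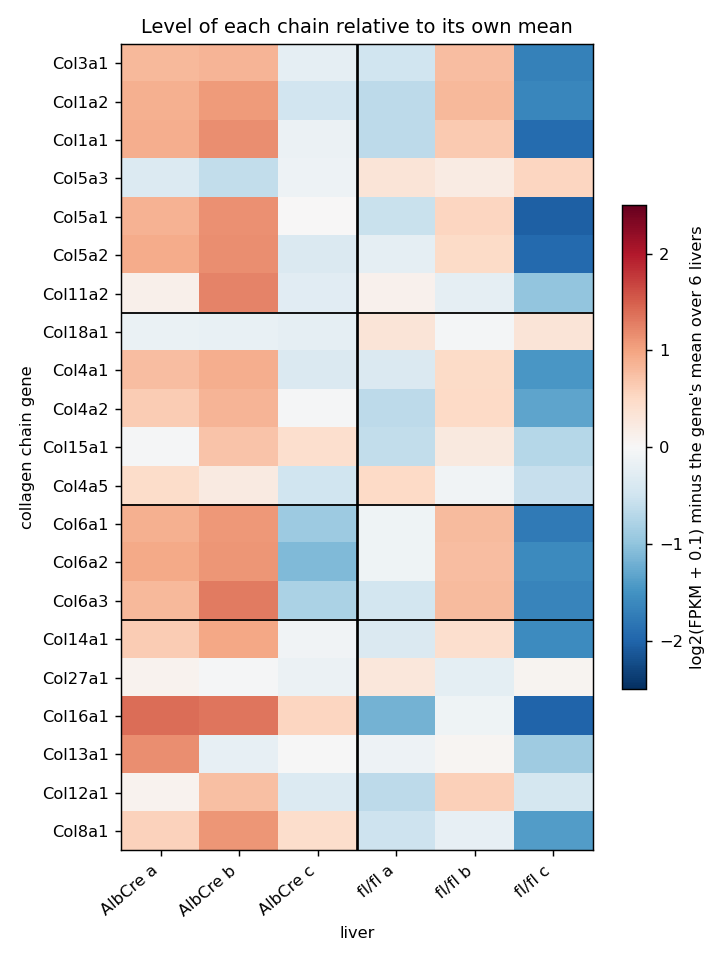
Level of each of the 21 collagen chain genes in each liver as log2(FPKM + 0.1) minus the gene's mean over the 6 livers, red above and blue below that mean, Chrna2fl/fl;AlbCre livers in the 3 left columns and Chrna2fl/fl livers in the 3 right ones. The columns of mutant liver b and control liver b are red and that of control liver c is blue in most rows, with Col5a3, Col18a1 and Col27a1 as rows that do not follow.

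Summed over all 44 genes, collagen transcripts came to 509, 545 and 330 FPKM in mutant livers, against 391, 489 and 317 FPKM in control livers, or 461 ± 115 against 399 ± 86.2 FPKM (SD, n = 3 each). The groups overlapped. Col18a1 alone made up 32.7%, 30.1% and 48.7% of this sum in mutant livers and 59.8%, 37.0% and 74.0% in control livers. Without it the sums were 342, 381 and 170 FPKM in mutant livers and 157, 308 and 82.6 FPKM in control livers. The chains of types I and III together took 32.1%, 32.5% and 22.8% of the collagen sum in mutant livers, against 15.8%, 31.6% and 8.65% in control livers. Control liver b thus had a collagen mix close to that of mutant livers a and b.

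**Figure D4:**
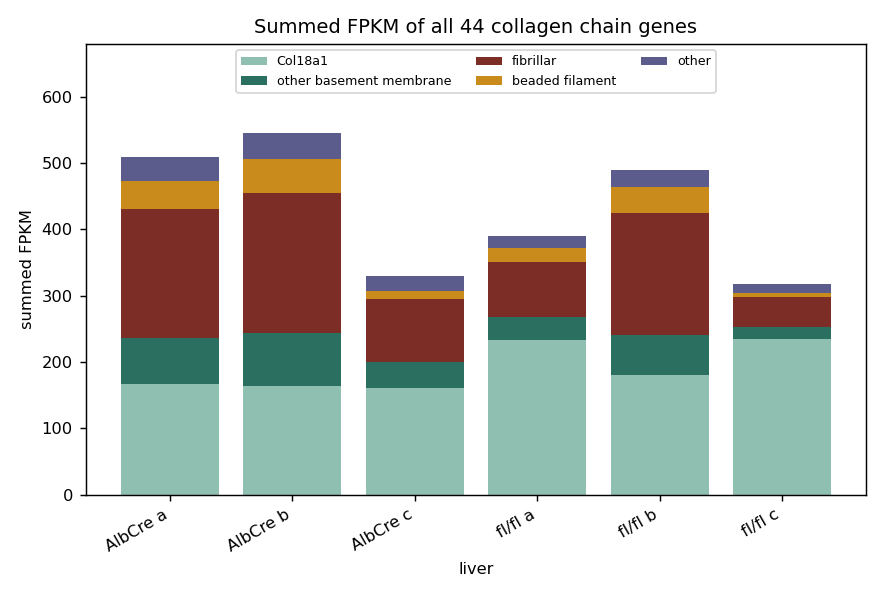
Summed FPKM of all 44 collagen chain genes in each liver, Chrna2fl/fl;AlbCre livers left and Chrna2fl/fl livers right, with Col18a1 at the bottom and the classes stacked above it. The Col18a1 block is 161 to 167 FPKM in mutant livers and 181 to 235 FPKM in control livers, and the fibrillar block is largest in mutant liver b at 213 FPKM and smallest in control liver c at 45.0 FPKM.

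Ratios of chains within a liver do not depend on a factor that scales a whole library. With 6 ratios compared and 3 livers against 3, the exact permutation test (two-sided) cannot give a p below 0.1. Col1a1 over Col1a2 was 0.619, 0.649 and 0.767 in mutant livers, against 0.617, 0.550 and 0.493 in control livers, a log2 difference of 0.29 (exact p = 0.1, adjusted p = 0.3). Mutant liver a and control liver a were nearly equal, so the groups were separated by a narrow margin.

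Col1a1 over Col3a1 was 0.274, 0.316 and 0.270 in mutant livers, against 0.230, 0.238 and 0.213 in control livers, a log2 difference of 0.33 (exact p = 0.1, adjusted p = 0.3). This ratio was higher in every mutant liver than in any control liver, although the levels of each chain overlapped. Col4a1 over Col1a1 was 1.64, 1.502 and 1.54 in mutant livers, against 2.20, 1.58 and 2.54 in control livers (log2 difference -0.41, exact p = 0.2, adjusted p = 0.4). Partner chains of types IV and VI differed less: the log2 difference was -0.10 for Col4a1 over Col4a2 (exact p = 0.7), 0.089 for Col6a1 over Col6a2 (exact p = 0.6) and 0.17 for Col6a3 over Col6a1 (exact p = 0.4). The Col6a1 over Col6a2 ratio stayed between 1.24 and 1.596 in all livers.

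**Figure D5:**
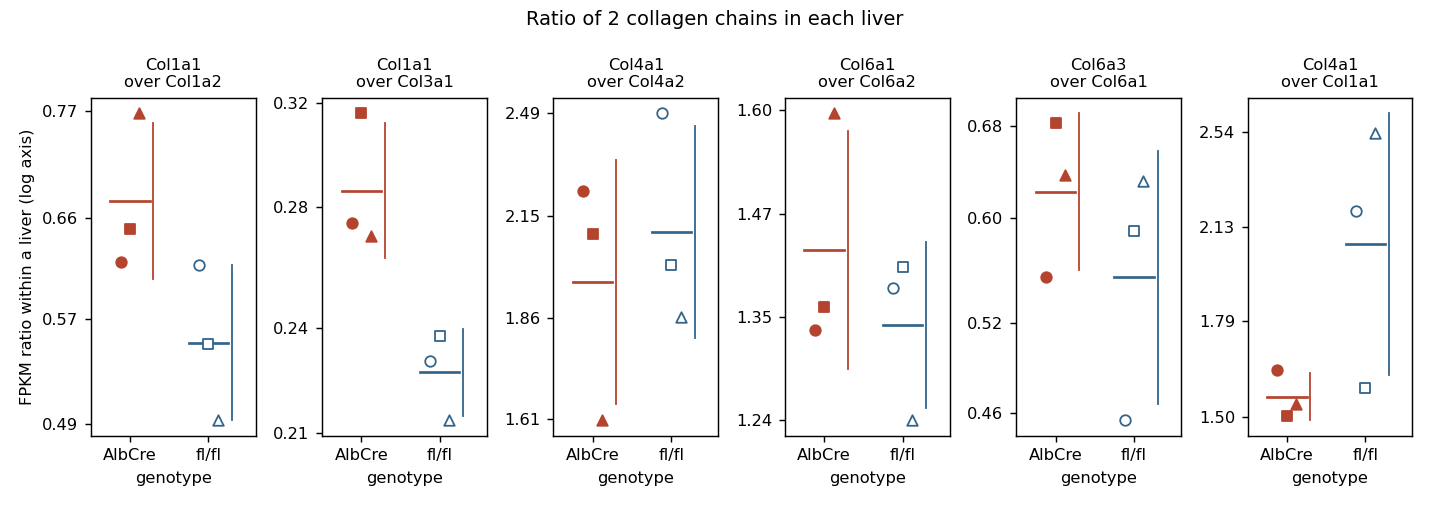
FPKM ratio of 2 collagen chains within each liver (log axis, which does not start at 0) for 6 pairs, Chrna2fl/fl;AlbCre left and Chrna2fl/fl right in each panel, with the mean of log2 ratios as a horizontal line and its SD as a vertical one. The points of the genotypes do not overlap for Col1a1 over Col1a2 and Col1a1 over Col3a1 and overlap in the other 4 panels.

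Several members are neighbours in the genome. Besides the pair on chromosome 8, Col4a5 and Col4a6 on chromosome X and Col4a3 and Col4a4 on chromosome 1 are divergent pairs, with gaps of 1308 and 71 bases. Col3a1 and Col5a2 lie tail to tail on chromosome 1, 24614 bases apart. Col6a2, Col6a1 and Col18a1 lie on the same strand of chromosome 10, with 85161 bases between the first pair and 326009 bases from Col6a1 to Col18a1. On this stretch the type VI chains were higher on average in mutant livers and Col18a1 was lower. Col4a1, Col4a2, Col5a1 and Col15a1 overlap genes on the other strand. The libraries were directional, but the strand setting of the counting was not given in the sources used here, so reads of overlapping genes may be shared.

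Enzymes and receptors of collagen are given from lists, and none of their genes passed an adjusted p under 0.05. Of 28 genes for collagen hydroxylation, folding, processing and crosslinking, 24 were tested. At an unadjusted p under 0.05, 8 of them (33.3%, against 13.2% of all genes) were higher and 0 lower (3.02% of all genes), with a median log2 fold change of 0.78, beside 0.19 over all genes. P4hb, the beta subunit of prolyl 4-hydroxylase, which also acts on many other secreted proteins as a disulfide isomerase, was at 1622, 1767 and 1460 FPKM in mutant livers, against 827, 1145 and 752 FPKM in control livers (log2 fold change 0.85, SE 0.19, adjusted p = 0.245). P3h1, a collagen prolyl 3-hydroxylase, was at 9.64, 13.0 and 13.8 FPKM, against 5.63, 9.06 and 6.31 FPKM (0.80, SE 0.23). Both had every mutant liver above every control liver, as did Ppib, a prolyl isomerase of collagen folding (0.64, SE 0.22). Such separation was reached by 6 of the 24 tested genes, against 18.7% of all genes. Of 10 collagen receptor genes, 6 were tested, with a median log2 fold change of 0.56, and 3 were higher at an unadjusted p under 0.05 (50%, against 13.2% of all genes): the receptor tyrosine kinase Ddr1 (1.15, SE 0.31), the integrin subunit Itga1 (0.53, SE 0.20) and the inhibitory leukocyte receptor Lair1 (1.31, SE 0.48).

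Markers of cells that make collagen were read in the same libraries, and the counts of higher markers, all at an unadjusted p under 0.05, stand against 13.2% of all genes higher and a median log2 fold change of 0.19. No marker passed an adjusted p under 0.05. Stellate cell markers (14 of 14 tested, of which 1, or 7.14%, was higher and 0 lower) summed to 124, 144 and 96.2 FPKM in mutant livers and to 77.7, 125 and 44.02 FPKM in control livers. Portal fibroblast markers (10 of 12 tested, of which 1, or 10.0%, was higher) summed to 42.0 to 78.3 FPKM in mutant livers and 25.3 to 58.2 FPKM in control livers. Median log2 fold changes were 0.645 for the stellate cell and 0.648 for the portal fibroblast markers, beside 0.19 over all genes. Like the collagen sum without Col18a1, both sums were highest in mutant liver b and lowest in control liver c. This was not particular to these lists. The mesothelial and macrophage sums given below, and the myofibroblast and cholangiocyte sums without Spp1, had the same highest and lowest liver. The endothelial sum was highest in mutant liver a, and the hepatocyte sum was highest in control liver a.

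Myofibroblast markers (10 of 12 tested) had 7 higher (70.0%, against 13.2% of all genes) and 0 lower, with a median log2 fold change of 1.63, beside 0.19 over all genes. Acta2, the smooth muscle actin of myofibroblasts, was at 30.2, 38.6 and 11.3 FPKM in mutant livers, against 2.11, 8.38 and 0.65 FPKM in control livers (3.30, SE 0.86, adjusted p = 0.255), and Timp1, an inhibitor of matrix metalloproteinases, at 14.7, 13.4 and 8.36 FPKM, against 2.5, 6.49 and 0.87 FPKM (2.22, SE 0.64). As with Col16a1, and unlike Col1a1, every mutant liver was above every control liver in both. That held for 4 of the 10 tested markers (18.7% of all genes). The list summed to 450 to 548 FPKM in mutant livers and 118 to 297 FPKM in control livers. Without Spp1, its most abundant gene, the sums were 241, 287 and 125 FPKM in mutant livers, against 99.0, 180 and 45.1 FPKM in control livers, and overlapped. Dcn, the next most abundant, had a log2 fold change of 0.64 (SE 0.47).

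Markers of other cell types also varied between the livers. Sinusoidal endothelial markers had 5 of 10 tested higher (50%, against 13.2% of all genes) and summed to 95.6 to 140 FPKM in mutant livers and 58.3 to 93.2 FPKM in control livers, and macrophage markers had 3 of 12 higher (25.0%), with sums of 295 to 599 FPKM in mutant livers and 207 to 352 FPKM in control livers. Mesothelial markers, 0 of 7 higher, summed to 36.6, 41.2 and 9.57 FPKM in mutant livers, against 27.5, 26.5 and 7.10 FPKM in control livers, with both c livers low. Cholangiocyte markers, 1 of 7 higher or 14.3% (Spp1, also on the myofibroblast list), summed to 194 to 452 FPKM in mutant livers and 87.7 to 225 FPKM in control livers. Spp1 made up most of these sums, which without it were 27.9 to 31.6 FPKM in mutant livers and 14.6 to 27.0 FPKM in control livers. Hepatocyte markers had 0 of 7 higher or lower. Median log2 fold changes were 0.64 for endothelial, 0.61 for macrophage, 0.64 for mesothelial, 0.54 for cholangiocyte and -0.075 for hepatocyte markers. No marker on these lists was at 0 in all livers. The mean fragment length estimated per library was 283, 285 and 274 bases in mutant livers and 279, 283 and 270 bases in control livers, shortest in the c libraries. The part of these cell types, of fragment length and of depth in the collagen levels was not tested.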

How the data were processed

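Gene FPKM values of 6 livers were used, 1 column per liver. From poly(A) RNA in directional libraries, the authors aligned paired reads to GRCm38 with STAR 2.7.8a, and they deposited FPKM per gene from RSEM 1.3.3, rounded to 2 decimals. Tools named in the submitters' processing notes are also cutadapt 2.3, FastQC 0.11.8 and MultiQC 1.7. No further scaling between libraries was stated. Counts were not analysed here. Separate animals per library follow from the study's description, not from an animal number.

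Genes that averaged 0.5 FPKM or more, 13943 in all, were compared with limma 3.58.1 (lmFit, and eBayes with a trend) in R 4.3.3 on log2(FPKM + 0.1), p-values being adjusted after Benjamini and Hochberg and called at 0.05. The pseudocount understates fold changes of low genes. Chain ratios were compared with exact permutation tests in scipy 1.17.1. The fit was also run on simulated data with independent noise for each gene and liver. Shifts shared by many genes of a liver and the depth difference between genotypes were not simulated. Depth and fragment length were estimated per library from increments between small FPKM values of transcripts of 600 to 2500 bases. They were set to bring these values closest to whole fragments. The 87.4% to 89.4% that then lay within 0.15 of a whole number are therefore not a separate check. Fragment numbers given for a gene follow from its longest transcript and are approximate. Gene positions came from a GRCm38 annotation that held 55227 of 55491 genes, and promoter windows from RefSeq.

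Every chain with a mean of at least 0.5 FPKM was named, those from 5 FPKM or with an unadjusted p under 0.05 with each liver's value. Of each other list, up to 2 members by level and 2 by p could be named. The members, lists and tests were chosen with earlier results of these data known. A hepatocyte symbol had no match in the table. Alternatives were other pseudocounts, filters and scalings, limma with no trend, limma with array weights, the letter as a block, and each liver left out in turn.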

Additional observations from a re-analysis of the deposited data

How the results depend on the processing

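No collagen chain passed an adjusted p under 0.05 in limma under any of the 16 alternatives run. The lowest adjusted p was 0.0546 for Col16a1 without control liver b, a setting in which 39 of all genes tested passed. The count of chains higher at an unadjusted p under 0.05, 2 as reported, was 0 with a minimum mean of 5 FPKM, 1 with median-ratio scaling, 9 with array weights, 14 with the replicate letter as a replicate block, and 1 to 11 with 1 liver left out. Over all genes, calls in either direction at that p were 2263 as reported, 3658 with array weights and 2114 with the replicate block. Higher calls over all genes were not counted apart in these alternatives. No source used here says that the letters pair the livers, and deviations of same-letter livers correlated at -0.0186, 0.0554 and 0.0159 over genes. This does not decide whether collagen chains share a letter effect, which was not tested. Over the 21 chains, the median log2 level relative to each gene's mean was highest in liver b and lowest in liver c in both genotypes. It was 0.97 and -0.22 in mutant livers b and c, and 0.47 and -1.45 in control livers b and c. The count of lower chains, also 2, was 3 without a filter and 1 to 2 with 1 liver left out. Chains with every mutant liver above every control liver, 2 as reported, numbered 0 with a minimum mean of 5 FPKM, which leaves out Col8a1, Col16a1 and 5 others, and 2 to 14 with 1 liver left out, and those with every mutant liver below numbered 4 without a filter, which adds genes of low values. Without a filter the median log2 fold change was 0.32 over all chains, against 0.87 as reported, 0.25 for basement membrane chains and 0.13 for the other chains, as it then covers genes of low values.

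Of the 21 chains, 18 kept the sign of their log2 fold change in every alternative that gave them a value, 16 for most and 15 for the 7 below a mean of 5 FPKM. Col4a5 changed sign, to -0.069 with median-ratio scaling, -0.18 with quantile normalization, -0.12 with array weights and -0.14 to 0.40 with 1 liver left out. Col6a2 ranged over -0.016 to 1.33 and Col27a1 over -0.21 to 0.064 with 1 liver left out, and the log2 difference of Col4a1 over Col4a2 over -0.20 to 0.039. The causes were not tested. Median-ratio scaling and quantile normalization moved the median of all genes tested to -0.0062 and -0.0043, against 0.19 as deposited, and the share of genes above 0 to 49.2% and 49.3%, against 70.3%. The median of the 21 chains was then 0.68 and 0.65. Depth limits chains near 0.5 FPKM, such as Col8a1.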
